A study of Mnemiopsis leidyi with 31 samples.

Results

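An egg is loaded with messenger RNA by the mother, and the first cleavages of most animal embryos run on that store before the embryo's own genome is read. A maternal message can nevertheless become more abundant in a library within hours of fertilization. The embryo may transcribe the gene anew, or stored messages may receive longer polyA tails, which is known as cytoplasmic polyadenylation from frog, fly and mouse eggs. In libraries made from RNA selected by its polyA tail, as here, the 2 cannot be told apart, because a message with a lengthened tail is also captured more readily.

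The transcripts described here come from embryos of the comb jelly Mnemiopsis leidyi. They were present in both 1 hpf (hours post fertilization) libraries with codes of 2013 and stood higher on average at 2 and 3 hpf. They were chosen by measured values: a level of 5 to 1000 CPM (the count scaled to a common library total) in both 1 hpf libraries, and a mean over the 5 libraries of 2 and 3 hpf of at least 2 times the 1 hpf mean. Of 31067 transcript records in the count table, 6749 lay in that range at 1 hpf, and 31 of these, or 0.459%, met the fold. All 31 are described. The rise from 1 hpf to 2 and 3 hpf is therefore a description with no test. The records carry numbered identifiers, and none of them matched the gene names used here, so no function can be given for any of them.

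Each library was made from a pool of 100 to 200 whole embryos per stage from animals collected in the wild, and the labels name no treatment and no genetic change. The 9 hours from 1 to 9 hpf held 31 libraries, 19 with codes of 2013 and 12 with codes of 2012. The libraries of 2013 fall into code series by the first digit of their code. Series 2013_2 has 1 library for each hour from 1 to 8 hpf (2013_21 to 2013_28), series 2013_3 covers 2, 3 and 4 hpf (2013_32, 2013_33, 2013_34), series 2013_4 covers 1, 2 and 6 to 9 hpf (2013_41, 2013_42, 2013_46 to 2013_49), and series 2013_1 covers 7 and 8 hpf (2013_17, 2013_18). What a code series stands for is not stated in the labels, and nothing says that libraries of a series came from 1 spawning. Total counts of the 2013 libraries ran from 17608264 to 66728425. The study's design calls libraries of an hour biological replicates without naming separate spawnings, so a p-value here covers library-to-library spread alone. In such bulk samples, fewer cells of a type and less RNA per cell cannot be told apart, and with unnamed records the stage could not be checked against known marker genes.

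The libraries that set the 2-3 hpf mean did not stand together, and this comes before any result. Series 2013_3 has no library of 1 hpf, so its 2 libraries of 2 and 3 hpf could be set only against 1 hpf libraries of other series. A set of 293 late records, defined by levels under 1 CPM in 2013_21 and 2013_41 together with 10 CPM or more in each of the 3 libraries of 8 hpf of 2013, took 0.328% of counts in 2 hpf 2013_32 and 0.489% in 3 hpf 2013_33. The same records took 0.00913% in 2 hpf 2013_22, 0.0272% in 2 hpf 2013_42 and 0.0447% in 3 hpf 2013_23, against 0.00921% in 1 hpf 2013_21 and 0.00579% in 1 hpf 2013_41. The definition itself keeps the shares of 2013_21 and 2013_41 low, and it used no library of series 2013_3. Both libraries of series 2013_3 thus held more RNA of late records than any other library of 1 to 3 hpf of 2013. The members' median level was also highest in these 2 libraries. It was 67.2 CPM in 2013_32 and 78.3 CPM in 2013_33, 22.9 CPM in 2013_22, 6.77 CPM in 2013_42 and 28.7 CPM in 2013_23, against 24.6 CPM in 2013_21 and 13.4 CPM in 2013_41. The part that these late records, or whatever sets them apart, have in the members' rise was not tested. The share in 2013_32 lay between those of 4 hpf 2013_24 (0.185%) and 5 hpf 2013_25 (0.395%), and the share in 2013_33 above that of 2013_25. In 4 hpf 2013_34, also of series 2013_3, the share was 0.758%. That was above 6 hpf 2013_26 (0.578%), 7 hpf 2013_27 (0.528%) and 7 hpf 2013_17 (0.729%), but below 6 hpf 2013_46 (1.32%) and 7 hpf 2013_47 (1.84%). The hours of 2013_32, 2013_33 and 2013_34 rest on their labels alone, and each of these libraries may be of a later stage than labelled. Every mean, ratio and test given here that uses them takes the labels as they stand.

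**Figure D1:**
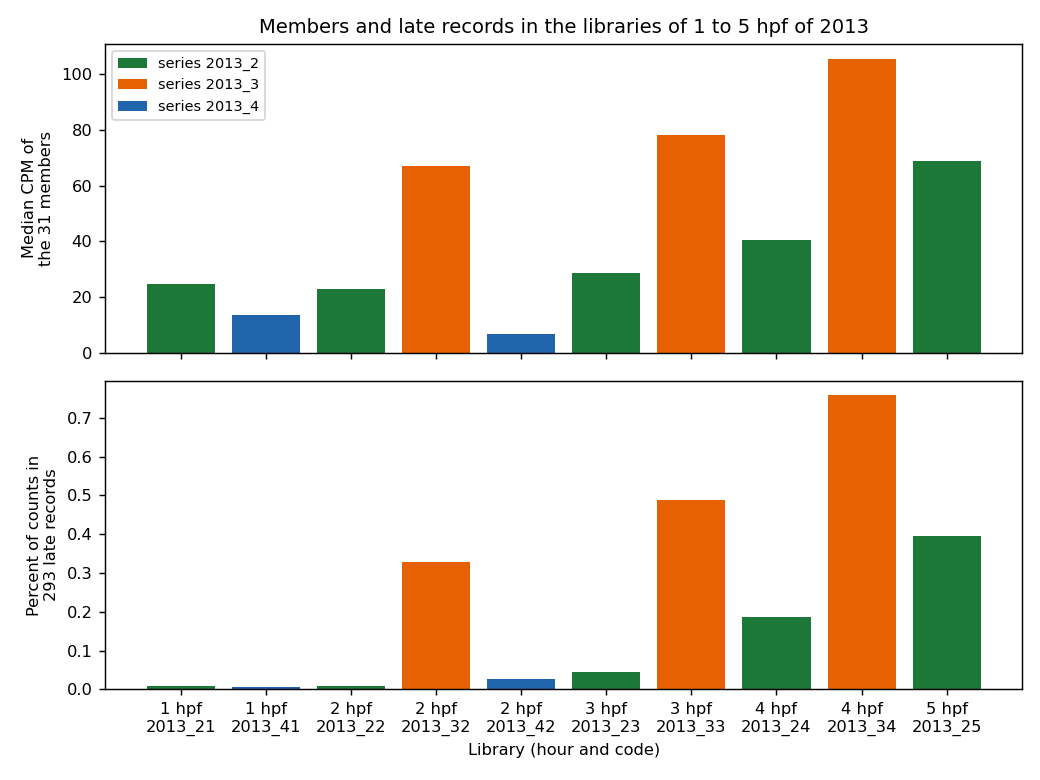
Median CPM of the 31 members (top) and percent of counts in 293 late records (bottom) in each library of 1 to 5 hpf of 2013, coloured by code series and with 1 bar per library. The 3 libraries of series 2013_3 stand above the other library of their hour in series 2013_2 in both panels.

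The rise did not hold within series 2013_2. None of the 31 members reached 2 times the level of 1 hpf 2013_21 in both 2 hpf 2013_22 and 3 hpf 2013_23, and neither did any of the 6749 records in the range (0%). In 2013_22 alone the members' ratio to 2013_21 ran from 0.186 to 1.76 with a median of 1.05, beside a median of 0.972 over the 6749 records, and 0 members reached 2 times. In 2013_23 the median ratio was 1.06, beside 0.970 over all, and 1 member reached 2 times, as did 4 of the 6749 records (0.0593%). At a ratio of 1.5 in both libraries, 2 members held, beside 33 of the 6749 records.

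In series 2013_4 most members were lower at 2 hpf, as were most records. The ratio of 2 hpf 2013_42 to 1 hpf 2013_41 had a median of 0.529, beside 0.622 over all 6749 records. Of the members, 4 reached 2 times (2.87% of all records did). Levels above those of 2013_41 were found for 10 of the 31 members and for 20.9% of all records, so that most records, members or not, were lower in 2013_42. Against the mean of both 1 hpf libraries, 27 members reached 2 times in 2013_32 (3.39% of all records) and 28 in 2013_33 (3.62%). Of the 31 members, 27 were higher in both 2013_32 and 2013_33 than in any of 2013_22, 2013_23, 2013_21 and 2013_41. None was higher in all 5 libraries of 2 and 3 hpf than in both of 1 hpf. The library with the highest level at 2 and 3 hpf was 2013_33 for 20 members, 2013_32 for 8 and 2013_42 for 3. Shares over all records were not taken for these counts of which libraries stood higher. The rule used the same libraries, so the counts only describe the list. Without series 2013_3, 4 of the 31 kept a mean of 2 times the 1 hpf mean, and without 2013_42, 28 did.

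**Figure D2:**
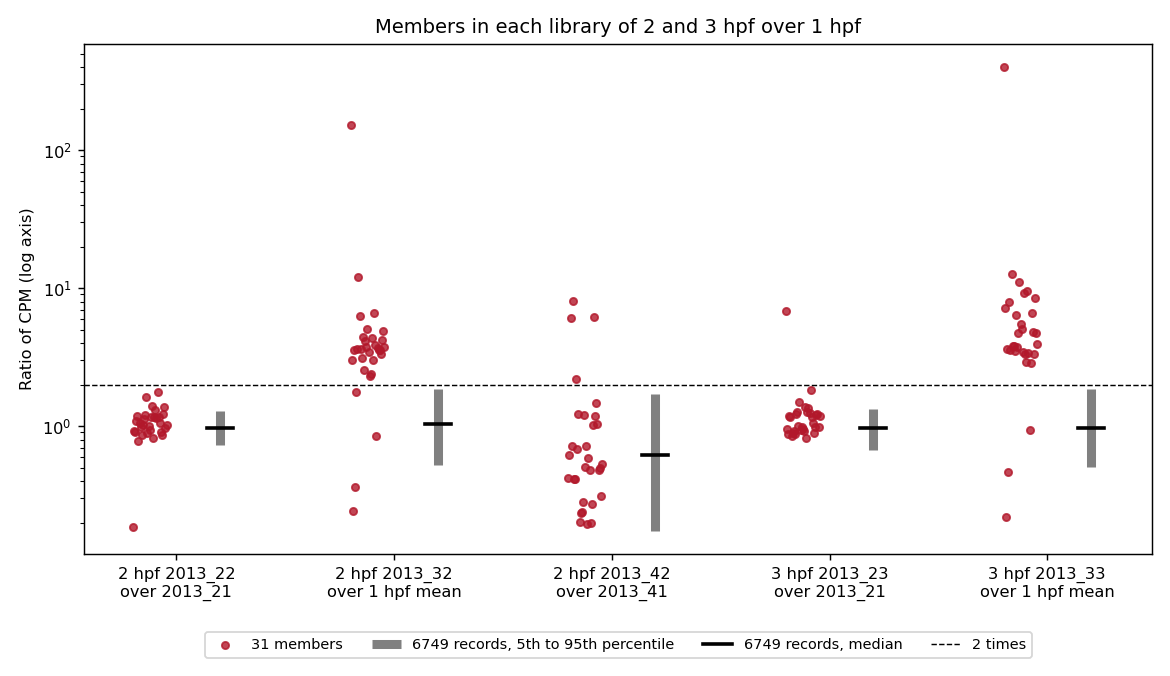
Ratio of CPM in each library of 2 and 3 hpf to 1 hpf, on a log axis, for the 31 members (red points) with the median and the 5th to 95th percentile of all 6749 records in the range (black and grey). Members lie near 1 in 2013_22 and 2013_23, mostly above 2 in 2013_32 and 2013_33, and mostly under 1 in 2013_42.

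A selection that leaves series 2013_2 out was then read in that series. In all, 561 records had 5 to 1000 CPM in 2013_41 and a mean of 2013_32, 2013_33 and 2013_42 at least 2 times it, and 553 of these had at least 5 CPM in 2013_21. Of the 553, 0 reached 2 times in both 2013_22 and 2013_23, where the median of the smaller of both ratios was 0.979. Over the 6769 records in the range the count was 1 and the median 0.939. In the other direction, 10 records were selected within series 2013_2, only 2 of them had 5 CPM or more in 2013_41, and neither reached 2 times in 2013_42.

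The same contrast between series was read in a pair of libraries that the rule did not use, both of 4 hpf. In 2013_34, of series 2013_3, 18 of the 31 members stood at 2 times or more their level in 2013_24, of series 2013_2, beside 225 of the 6749 records (3.33%). The median ratio was 2.41 for members and 0.965 for all records. The late records took 0.758% of counts in 2013_34, against 0.185% in 2013_24. Each series has 1 library at this hour, so there is no replicate check. Of the 31 members, 27 had reached 2 times the 1 hpf mean in both 2013_32 and 2013_33, of the same series as 2013_34. The pair thus repeats the contrast through which most members were chosen, and these counts support nothing by themselves.

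Mle_027457, a record of 1371 bases, had by far the highest ratio of the means, 112, and is the 1 member that reached 2 times the 1 hpf level within series 2013_2 by 3 hpf. Along that series from 1 to 8 hpf it stood at 20.0, 3.71, 138, 1037, 3694, 7025, 7132 and 8368 CPM. The library of 3 hpf held 2922 of its counts, while those of 1 and 2 hpf held 723 and 89. It was thus lower at 2 hpf than at 1 hpf before its level went up at every hour of the series. Series 2013_3 had 2078, 5462 and 6355 CPM at 2, 3 and 4 hpf, already above series 2013_2 at each hour. In series 2013_4 it was at 7.36 CPM at 1 hpf and 3.10 CPM at 2 hpf, and at 15595, 13739, 7263 and 3800.0 CPM at 6, 7, 8 and 9 hpf. The libraries 2013_17 and 2013_18 held 3587 and 2278 CPM. Each of the 12 libraries of 4 hpf and later exceeded both libraries of 1 hpf.

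Mle_016672 (2874 bases), the member with the next highest ratio of the means (5.79), had 81.9 CPM in 2013_32, 86.8 CPM in 2013_33 and 17.9 CPM in 2013_42. In 2013_22 and 2013_23 it stood at 5.34 and 4.99 CPM, against 5.42 CPM in 2013_21 and 8.19 CPM in 2013_41. Its level in series 2013_2 thus stayed flat to 3 hpf, and it was 12.1, 22.3 and 63.1 CPM there at 4, 5 and 6 hpf.

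The members with the highest ratios in both libraries of series 2013_2 were Mle_000293 and Mle_005547. Mle_000293, the longest member (12247 bases), had 15.8 CPM in 2013_22 and 16.6 CPM in 2013_23, against 9.01 CPM in 2013_21. In series 2013_4 it had 6.17 CPM in 2013_42, against 6.00 CPM in 2013_41. Mle_005547 (1038 bases) had 265 CPM in 2013_22 and 247 CPM in 2013_23, against 164 CPM in 2013_21, while in series 2013_4 it had 5.89 CPM in 2013_42, against 24.7 CPM in 2013_41. These are the 2 members that reached 1.5 times in each library of series 2013_2, and in series 2013_4 their ratios were 1.03 and 0.238.

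The lowest ratios in series 2013_2 were those of Mle_027457 at 2 hpf and of Mle_000282 (5429 bases). Mle_000282 had 4.96 CPM in 2013_22 and 5.41 CPM in 2013_23, against 6.39 CPM in 2013_21. It entered the list through 3 hpf 2013_33, at 46.3 CPM, with 10.4 CPM in 2013_32 and 2.21 CPM in 2013_42.

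The members with their highest 2-3 hpf level in 2013_42 were Mle_029242, Mle_001456 and Mle_001638, of which the last 2 were named after their values were seen. Mle_029242 (2707 bases), which also has the second highest mean at 2 and 3 hpf after Mle_027457 (635 CPM), stood at 2905 CPM in 2013_42 and between 60.8 and 72.4 CPM in the other 4 libraries of 2 and 3 hpf, against 478 CPM in 2013_41 and 80.5 CPM in 2013_21. Mle_001456 (1049 bases) had 1814 CPM in 2013_42 and 41.2 to 61.3 CPM in the others, against 226 CPM in 2013_41 and 35.6 CPM in 2013_21. Mle_001638 (3784 bases) had 483 CPM in 2013_42 and 54.5 to 59.7 CPM in the others, against 78.2 CPM in 2013_41 and 49.2 CPM in 2013_21. In each case 1 library carried the mean.

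At the lower end of the list, Mle_002981 (5747 bases) was the last member inside, with a ratio of 2.00 (49.5 CPM at 2 and 3 hpf, against 24.7 CPM at 1 hpf). Mle_018346 (2813 bases) was the first record outside, with a ratio of 1.98 (95.5 CPM, against 48.3 CPM). In Mle_002981 the libraries 2013_32 and 2013_33 had 90.3 and 70.3 CPM, and 2013_22, 2013_42 and 2013_23 had 32.1, 22.6 and 32.1 CPM, against 30.2 CPM in 2013_21 and 19.2 CPM in 2013_41. Over the whole list the ratios ran from 2.00 to 112 with a median of 2.36, so that most members lay close to the threshold, and only 6 reached 3 times. Their 1 hpf means ran from 5.86 to 293 CPM.

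**Figure D3:**
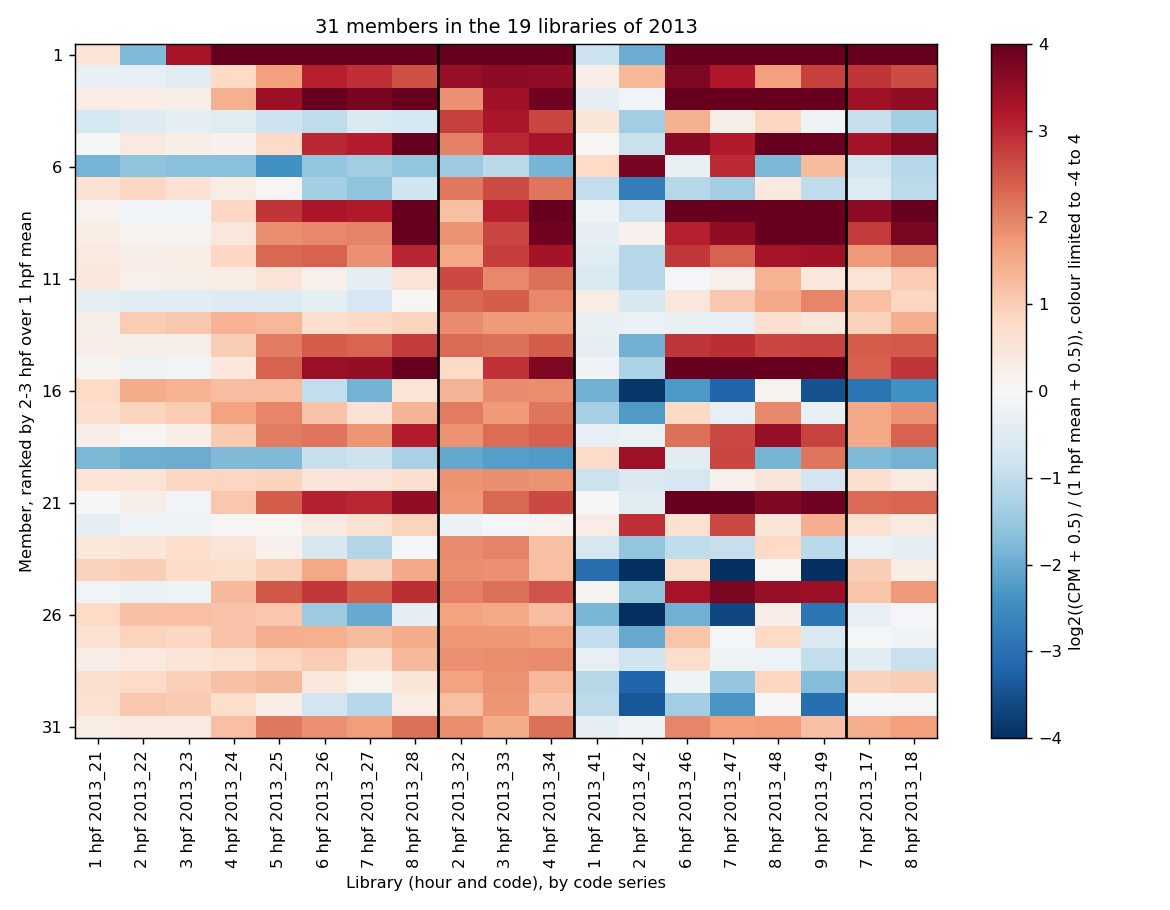
Level of each member (rows, ranked by the ratio of the means) in each of the 19 libraries of 2013 (columns, by code series and hour), as log2 of the ratio to the member's own 1 hpf mean after adding 0.5 CPM to each. Red columns of series 2013_3 stand beside pale columns of 2013_22 and 2013_23, and many rows turn red in series 2013_2 from 4 or 5 hpf on.

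Within series 2013_2 levels of 2 times 2013_21 became more frequent from 4 hpf. The number of members at that level was 6 in 2013_24 (0.43% of all 6749 records), 14 in 2013_25 (1.47%), 13 in 2013_26 (4.03%), 13 in 2013_27 (6.15%) and 15 in 2013_28 (5.04%). The members' median ratio at these 5 hours was 1.33, 1.83, 1.70, 1.60 and 1.89, beside 0.993, 1.03, 0.770, 0.684 and 0.773 over all records. In series 2013_4 the members with 2 times their 2013_41 level numbered 18 in 2013_46 (6.05%) and 18 in 2013_47 (5.84%). They numbered 26 in 2013_48 (19.4%) and again 18 in 2013_49 (9.54%), so the count did not keep growing. The members' median ratio in these libraries was 4.29, 3.72, 4.18 and 2.24, beside 0.749, 0.680, 1.05 and 0.639 over all records. The 1 hpf libraries in these ratios also served to choose the members, so these counts support nothing by themselves. Of the members, 22 were lower in 2013_41 than in 2013_21 and 9 were higher. Most records were lower there too, with 35.6% of all 6749 higher and a median ratio of 0.813. Over the windows of 1, 2-3, 4-5, 6-7 and 8-9 hpf in the libraries of 2013, the highest mean fell in 2-3 hpf for 9 members, in 4-5 hpf for 9, in 6-7 hpf for 4 and in 8-9 hpf for 9. By the rule 1 hpf could not be the highest window, and the libraries of 2-3 hpf also chose the members. The same counts over all records were not taken, so these only describe the list.

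**Figure D4:**
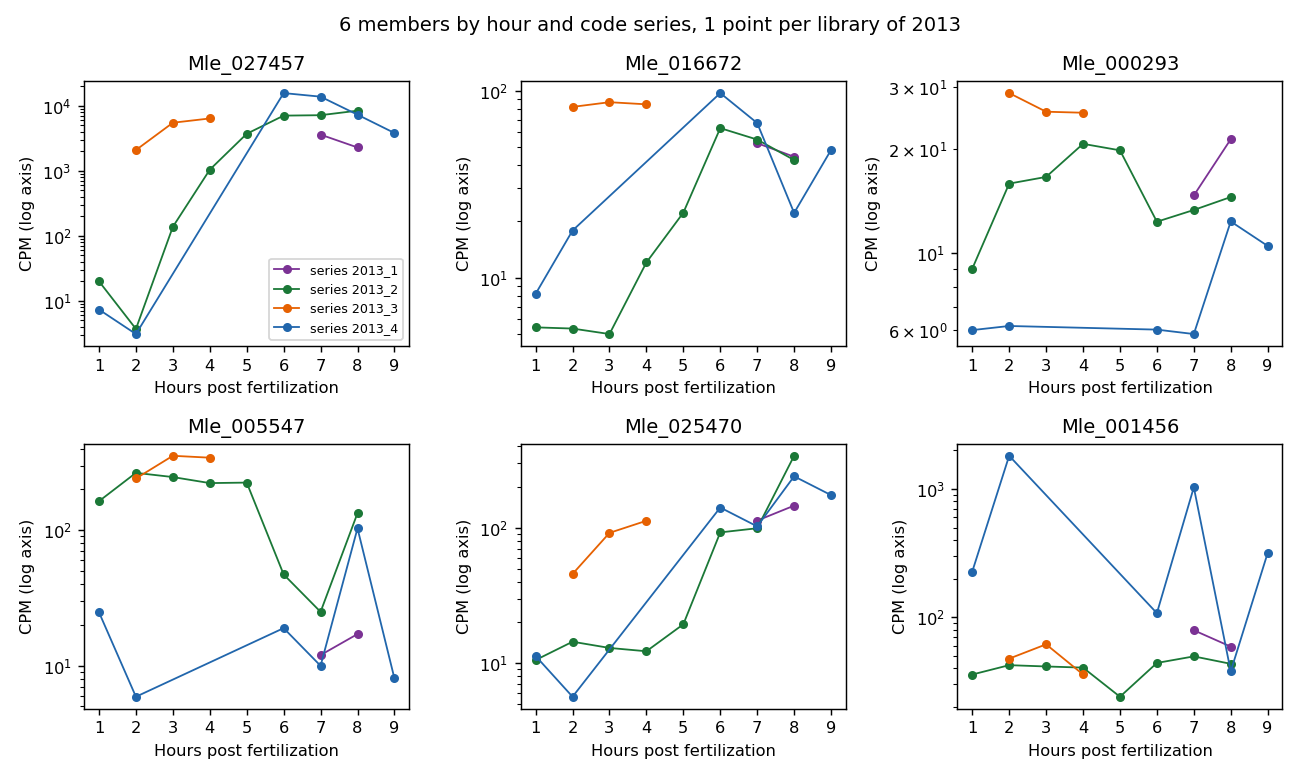
CPM on a log axis against hours post fertilization for 6 members, with 1 point per library of 2013 and lines joining libraries of a code series. Mle_027457 climbs in series 2013_2 from 3 hpf on, Mle_001456 peaks in single libraries of series 2013_4, and series 2013_3 lies above series 2013_2 at 2 and 3 hpf in all panels except at 2 hpf for Mle_005547.

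What followed the early hours was tested in the 12 libraries of 4 to 9 hpf of 2013, which the rule did not use, with edgeR's quasi-likelihood test over 17520 records and Benjamini-Hochberg adjustment. All 31 members passed the filter on low counts. Between 6-7 hpf (n = 5) and 4-5 hpf (n = 3), 3 members fell and 0 rose at an adjusted p under 0.05. Over all records 4.62% fell and 2.42% rose. With unadjusted p under 0.05, 8 members were higher and 5 lower, 13 of 31 in all, beside 5317 of the 17520 records. The members' median log2 fold change was 0.12, beside 0.27 over all records. This order depended on 2013_34, a library of 4-5 hpf from series 2013_3. Without it the median was 0.85 for members and 0.49 over all records. With the code series as a term of the model it was 0.80 for members and 0.26 over all.

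Mle_005547 stood at 47.1, 18.9, 11.96, 24.9 and 9.97 CPM in the libraries of 6-7 hpf, against 223, 343 and 225 CPM in those of 4-5 hpf. The groups did not overlap (edgeR's log2 fold change was -3.26 with an SE of 0.71 and an adjusted p of 0.0263). Mle_014521 (1046 bases) had 48.4, 34.5, 107, 32.5 and 10.3 CPM at 6-7 hpf, against 295, 314 and 281 CPM at 4-5 hpf, again without overlap (log2 fold change -2.35, SE 0.63, adjusted p = 0.0433, edgeR). Mle_001415 (619 bases), the shortest member, had 4.52, 5.37, 8.31, 3.67 and 4.38 CPM at 6-7 hpf, against 15.3, 56.7 and 12.8 CPM at 4-5 hpf (log2 fold change -2.09, SE 0.49, adjusted p = 0.0308, edgeR). Its library 2013_34 was well above the other two of 4-5 hpf, and without it the log2 fold change was -1.13 (adjusted p = 0.104, edgeR).

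Between 8-9 hpf (n = 4) and 4-5 hpf, 1 member rose and 1 fell. Over all records 10.3% rose and 6.64% fell. With unadjusted p under 0.05, 6 members were higher and 6 lower, 12 of 31 in all, beside 6929 of the 17520 records. The members' median log2 fold change was -0.08, beside 0.26 over all records. Without 2013_34 it was 0.63, beside 0.51 over all records, and with the code series as a term 0.12, beside 0.19. This comparison shares its 4-5 hpf libraries with the one above. The member that rose was Mle_025470 (1420 bases), with 146, 341, 240 and 175 CPM at 8-9 hpf, against 12.2, 113 and 19.4 CPM at 4-5 hpf, so that every later library was higher (log2 fold change 2.10, SE 0.62, adjusted p = 0.0405, edgeR). Its log2 fold change was 3.64 without 2013_34 and 3.83 with code series as a term. It was 1.63 without 2013_24 (adjusted p = 0.155, edgeR) and 1.69 without 2013_25 (adjusted p = 0.150, edgeR). DESeq2 gave it no p, and it passed in 9 of the 16 other settings that gave one. At 1 hpf Mle_025470 had 10.5 and 11.3 CPM. The member that fell was Mle_001415, with 5.74, 6.93, 16.5 and 5.90 CPM at 8-9 hpf, against the values of 4-5 hpf given above (log2 fold change -1.93, SE 0.52, adjusted p = 0.0341, edgeR). Here the groups overlapped, since 2013_48 exceeded 2 libraries of 4-5 hpf. For Mle_001415 the log2 fold change was -0.99 without 2013_34 (adjusted p = 0.127, edgeR) and -1.26 with code series as a term (adjusted p = 0.0652, edgeR). For Mle_027457 the 5 libraries of 6-7 hpf averaged 9416 ± 5044 CPM (SD) and the 4 of 8-9 hpf 5427 ± 2863 CPM, against 3695 ± 2659 CPM in the 3 of 4-5 hpf, and neither difference passed (adjusted p = 0.0923 for 6-7 hpf, edgeR).

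**Figure D5:**
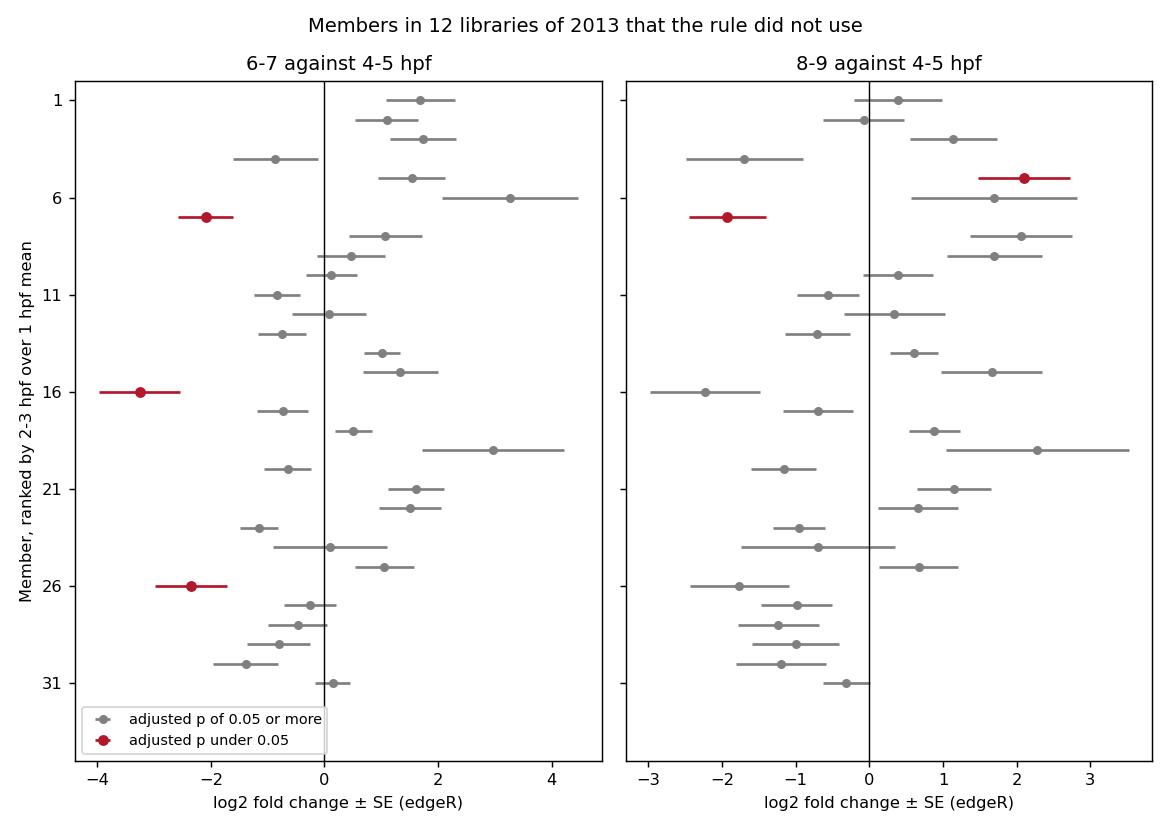
Log2 fold change with its SE (edgeR) of each member, ranked by the ratio of the means, at 6-7 against 4-5 hpf (left) and 8-9 against 4-5 hpf (right) in 12 libraries of 2013. Members at an adjusted p under 0.05 are red: 3 on the left, all lower, and 2 on the right, of which 1 is higher and 1 lower.

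Leaving out 1 library ended the calls of the whole fit in several cases, and those of single members in others. At 6-7 against 4-5 hpf, edgeR called 0 of all records in either direction without 2013_24, 2013_25, 2013_46, 2013_27 or 2013_47, with 3252 to 5115 records at an unadjusted p under 0.05. The fold changes of Mle_005547 then lay between -3.38 and -3.06 and those of Mle_014521 between -2.42 and -2.09 on the log2 scale, near those of the full fit. At 8-9 against 4-5 hpf, edgeR called 0 of all records without 2013_24, 2013_25 or 2013_49, with 4677 to 4986 at an unadjusted p under 0.05. Without 2013_49 the log2 fold change of Mle_025470 was 2.19 and that of Mle_001415 was -1.80. Single members also failed in fits that still called other records. At 6-7 hpf Mle_014521 had adjusted p = 0.0572 without 2013_34, 0.0597 without 2013_26 and 0.0501 without 2013_18 (edgeR). It passed in 9 of 17 other settings, and Mle_005547 in 12 of 17. At 8-9 hpf Mle_025470 had adjusted p = 0.0529 without 2013_28 and 0.0518 without 2013_48 (edgeR).

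The library 2013_34, the only one of series 2013_3 in this fit, moved the values themselves. It belongs to the 4-5 hpf group of both comparisons and may be of a later stage than labelled. Without it, 3 members rose and 1 fell at 6-7 hpf, beside 889 higher and 834 lower of 19028 records, and 4 rose and 0 fell at 8-9 hpf, beside 2372 higher and 1168 lower. With the code series as a term of the model, in which 2013_34 is alone in its series, 8 rose and 3 fell at 6-7 hpf, beside 1626 higher and 1759 lower of 17520 records, and 5 rose and 0 fell at 8-9 hpf, beside 2247 higher and 1382 lower. Mle_005547 had a log2 fold change of -2.20 at 6-7 hpf with that term. Scaling by library totals alone moved the median log2 fold change of all records to -0.04 at 6-7 hpf and to 0.43 at 8-9 hpf, with 314 records higher and 1501 lower at 6-7 hpf (424 and 809 with TMM factors) and 1663 higher and 325 lower at 8-9 hpf (1800 and 1164 with TMM factors).

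The libraries of 2012 were also not used by the rule. Their only 1 hpf library, 2012_N7, was nowhere below the 9 hpf library 2012_37 (0 of 31067 records), whose total came to 83.7% of its own, and 4 hpf 2012_N4 was nowhere below 5 hpf 2012_14, so that 2 of the 3 libraries of 4-5 hpf may share reads. In 2 hpf 2012_N6 the late records took 2.26% of counts, more than in any library of 2013 up to 5 hpf, and in 3 hpf 2012_N5 they took 0.0338%. At 2-3 hpf (n = 2) against 1 hpf (n = 1, assumed to vary like the other windows), edgeR's quasi-likelihood test called 0 of 26689 records in each direction (0% and 0%), with 103 at an unadjusted p under 0.05, of which 1 was a member. DESeq2 called 3 records and no member. Since the 1 hpf arm is 1 library that overlaps one of 9 hpf, these counts say nothing for or against a rise. The members' median log2 fold change was -0.51 with the deposited counts (0.00 over all records) and 0.59 after the overlapping columns were subtracted (1.89 over all records). At 8-9 hpf (n = 3) against 4-5 hpf (n = 3), edgeR again called 0 in each direction (0% and 0%), with 6748 at an unadjusted p under 0.05, of which 8 were members. DESeq2 called 2272 higher and 832 lower there, and 4 members, all higher.

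After the counts of 2012_37 were subtracted from 2012_N7, 29 of the 31 members lay at 5 to 1000 CPM in what was left. Of these 29, 13 stood at 2 times that level in 2012_N6 (12.7% of all records) and 6 in 2012_N5 (14.7%). In both libraries 4 did, beside 246 of the 7262 records in the range (3.39%). Mle_027457 had 434 CPM in 2012_N6 and 2.88 CPM in 2012_N5, against 6.53 CPM (90 counts) in the remainder of 2012_N7. It was thus high in the library with many late records and low in the other. The same transcript had 4806 CPM in the remainder of 4 hpf 2012_N4 after subtraction and 277 CPM in 5 hpf 2012_N3.

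The members' lengths, which the rule did not use, ran from 619 to 12247 bases with a median of 2258, beside a median of 2280 over the 6749 records in the range. The quartiles were 1375 and 3347 bases for members and 1553 and 3314 bases for the range. Scaled by length as well as by library total, the members' mean at 2 and 3 hpf ran from 1.52 RPKM (the CPM divided by the length in units of 1000 bases) for Mle_000293 to 1121 RPKM for Mle_027457, with a median of 23.3 RPKM.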

How the data were processed

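The deposited table holds whole-number read counts per transcript record and library, with record lengths. Bowtie2 and SAMtools were used, per the submitters' processing notes. For versions, reference and counting rule a statement was not given in the sources used here. Counts of near-identical records are therefore uncertain. The RPKM table was not used: all 717940 of its values above 0 carry the same total, 1413671828, for every library. None of the 31067 identifiers matched the gene name table (crg_Mlei_v2).

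CPM used column totals. The code of 1 library of 3 hpf came from its description, since its title differs. Members, lists and tests were chosen with earlier results of these data known. Tests used edgeR 4.0.16 under R 4.3.3 (filterByExpr by window, TMM factors, glmQLFit and glmQLFTest, Benjamini-Hochberg, threshold 0.05), fitted over 12 libraries of 2013 from 4 to 9 hpf (windows 4-5, 6-7 and 8-9 hpf) and, separately, over the 12 of 2012. SE was taken as the size of the log2 fold change over the root of F. The test was also run on simulated counts, but these varied less between libraries than the real counts and held no code series. That run says nothing about the error rates here. Alternatives were RLE factors, library totals, no filter, DESeq2 1.42.0, code series as a term, subtraction of overlapping columns and leaving out each library.

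Named members were, by rule (with 2 added for 2013_42 after their values were seen), the 2 highest ratios of the means, the 2 highest and 2 lowest within series 2013_2, the 2 highest 2-3 hpf means, both records at the boundary, and up to 2 that rose and 2 that fell in each test. Libraries had no molecular identifiers.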

Additional observations from a re-analysis of the deposited data

Results flagged for a closer look

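In 42 groups of 4 or 5 libraries of 2013 (12 named members and the members' median and sum, at 2-3, 6-7 and 8-9 hpf), 11 values lay far from the others of their window by Dixon's criterion. Several of these values came from the same library. Chance flags about 1 group in 20, but this count cannot be read against that share, because several members were named for extreme values. Mle_001456 and Mle_001638 were named because 2013_42 was their highest library of 2-3 hpf, so their values there restate that choice, and the rule itself used the libraries of 2-3 hpf. Mle_029242, Mle_001456 and Mle_001638 gave 8 of the 11 flagged values, each in the same direction. Their highest values were in 2 hpf 2013_42 (2905, 1814 and 483 CPM) and in 7 hpf 2013_47 (1775, 1029 and 396 CPM), and in 9 hpf 2013_49 for Mle_029242 and Mle_001456 (1246 and 317 CPM). All 3 libraries belong to series 2013_4, but 6 hpf 2013_46 and 8 hpf 2013_48 of that series, with 202 and 76.6 CPM of Mle_029242, did not stand apart. High levels were not confined to series 2013_4. In 8 hpf 2012_18 and 2012_N8B, Mle_029242 had 622 and 951 CPM, against 110 CPM in 9 hpf 2012_37. Mle_001456 had 692 and 1099 CPM in the same libraries of 8 hpf, against 46.3 CPM in 2012_37. What sets the libraries with high levels apart was not tested. Mle_000282 was far above the others in 3 hpf 2013_33 (46.3 CPM), Mle_014521 far below them in 2 hpf 2013_42 (7.30 CPM), and Mle_001415 far above them in 8 hpf 2013_48 (16.5 CPM).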

How the results depend on the processing

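The list depended on its libraries and its fold. There were 150 members (the most the rule allows) at 1.5 times, 6 at 3 times, 150 without series 2013_2 (27 of the 31 among them) and 53 without series 2013_4 (18 of the 31). Leaving out 1 library gave between 14 members (without 2013_33) and 150 (without 2013_21). TMM factors gave 37 and leaving out series 2013_3 gave 28, of which only 25 and 4 were among the 31. The count of members held in series 2013_2 was 0 with totals and with TMM factors and 2 at 1.5 times. For the selection made without that series it was 0, 0 and 18, and the 18 were of 1327 records (1.36%), beside 35 of all 6769 (0.517%). In the tests, members called at 6-7 against 4-5 hpf were 5 higher with DESeq2 (2155 of all 17520 records) and 8 with code series as a term, and with 1 library left out between 0 and 3 higher and between 0 and 5 lower. At 8-9 against 4-5 hpf they were 2 higher with RLE factors, 4 higher and 5 lower with DESeq2 (3654 and 2200 of all 17520 records), 5 higher and 0 lower with code series as a term, 0 lower with library totals and 0 lower with no filter, and with 1 library left out between 0 and 4 higher and between 0 and 4 lower. In 2012, DESeq2 called 4 higher at 8-9 against 4-5 hpf (2272 of all 26689 records). No called fold change of a named member changed sign under any of these settings. The cause of these shifts was not tested.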

Other observations

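Mle_014521 had its lowest levels among the libraries of 2013 in 2 hpf 2013_42 (7.30 CPM), 7 hpf 2013_47 (10.3 CPM) and 9 hpf 2013_49 (17.4 CPM), the same 3 libraries in which Mle_029242 was highest. It was not alone in this. Mle_005547, Mle_008365, Mle_020545 and Mle_027265 also had their lowest levels of 2013 in these 3 libraries. For 18 of the 31 members the lowest library of 2013 was 2013_42. The same count over all records was not taken. Most of the 6749 records in the range had a lower CPM in 2013_42 than in 2013_41 (median ratio 0.622). These patterns were noticed in the values and were not tested.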
